A study of Mus musculus with 4 samples.

Results

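The genes described here mark the dendritic cell subsets of the mouse spleen. They were 10 of the 23763 genes in the table, chosen by name with earlier results of these data known. Zbtb46 stands for all conventional dendritic cells (cDC). Xcr1, Clec9a, Batf3 and Irf8 stand for the cDC1 subset, and Clec4a4 and Esam for cDC2. Siglech, Ccr9 and Tcf4 stand for plasmacytoid dendritic cells (pDC). All 10 were detected in every library and all 10 passed the minimum level for testing. RNA came from whole spleen of C57BL/6J mice at baseline, 2 libraries labelled KLHL3-KI, which carry a knock-in at the gene for KLHL3, and 2 libraries labelled wild-type (WT). KLHL3 is the substrate adaptor of a cullin-3 ubiquitin ligase. Which allele was knocked in, and the ages and sexes of the animals, were not stated in the labels, nor was it stated that each library is a separate animal, so p-values measure the spread between these libraries, which may be technical.

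Dendritic cells take up antigen and present it to T cells. The cDC1 subset presents antigen from dead cells on MHC class I; it needs the transcription factors IRF8 and BATF3 and carries the chemokine receptor XCR1 and the dead-cell receptor CLEC9A. The cDC2 subset primes CD4+ T cells, and its splenic form that depends on Notch2 carries ESAM and the lectin receptor encoded by Clec4a4, known as DCIR2. Plasmacytoid cells make type I interferon, depend on the E protein TCF4 and carry SiglecH and CCR9. Several of these genes are also used outside dendritic cells: Irf8 and Tcf4 in B cells, Esam in endothelium, platelets and stem cells, and Ccr9 in T cells. The other members, Zbtb46 among them, may also come from other cells, and the cell source of each level was not tested.

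The values are scaled read counts, that is, the reads of a gene divided by 1 factor per library, with no correction for gene length, so they are compared between libraries and not between genes. The libraries held 9586677 and 10933023 reads in KLHL3-KI replicates 1 and 2, against 8535483 and 8975415 reads in WT replicates 1 and 2. Klhl3 itself was low, at 2.53 and 1.36 in the KLHL3-KI libraries against 3.02 and 4.67 in the WT libraries, and was not called (limma adjusted p = 0.0895); a knock-in need not change the level of its gene. A log2 fold change below is KLHL3-KI minus WT on the scale log2(scaled count + 1), with its standard error (SE), and a gene is called when its limma p, adjusted by Benjamini-Hochberg over 16970 tested genes, is under 0.05.

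The comparison asked how these markers differ between KLHL3-KI and WT spleen. The 3 members that passed the test were all transcription factors, and all were lower in KLHL3-KI: Irf8 and Batf3 of cDC1 and Tcf4 of pDC. Irf8 averaged 265.1 ± 10.7 in KLHL3-KI and 363 ± 24.5 in WT (SD, n = 2 each), Batf3 averaged 4.86 ± 0.130 in KLHL3-KI and 7.72 ± 0.790 in WT, and Tcf4 averaged 183 ± 9.72 in KLHL3-KI and 225 ± 2.91 in WT. None of the 6 surface markers passed, nor did Zbtb46, the factor of all cDC. Passing depended on the spread as well as on the size of the change. The log2 fold change was -0.29 (SE 0.14) for Ccr9 and -0.41 (SE 0.30) for Clec4a4, beside -0.30 (SE 0.09) for Tcf4. Of the other surface markers, Xcr1 and Clec9a were at -0.17 and -0.22, and Siglech and Esam at 0.02 and 0.30. In whole-spleen RNA, fewer cells of a type and less RNA per cell cannot be told apart.
Of the 10 members, 3 fell and 0 rose, where 7.56% of all tested genes fell, 15.2% rose and 22.8% did either. The count that rose was also 0 at an unadjusted limma p under 0.05, with edgeR and with DESeq2; edgeR called the fall of 3 members and DESeq2 that of 2. The median log2 fold change of the members was -0.25, beside -0.01 for all tested genes. Both KLHL3-KI values lay below both WT values in 5 members and above them in 1, and overlapped in 4; of all tested genes, 31.9% lay below and 32.8% above. So groups that do not overlap were common in this table, and that count alone shows little about the members. The calls also rested on few libraries. Without WT replicate 2, 0 members fell, and without WT replicate 1 or without KLHL3-KI replicate 2 only Irf8 did.

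**Figure D1:**
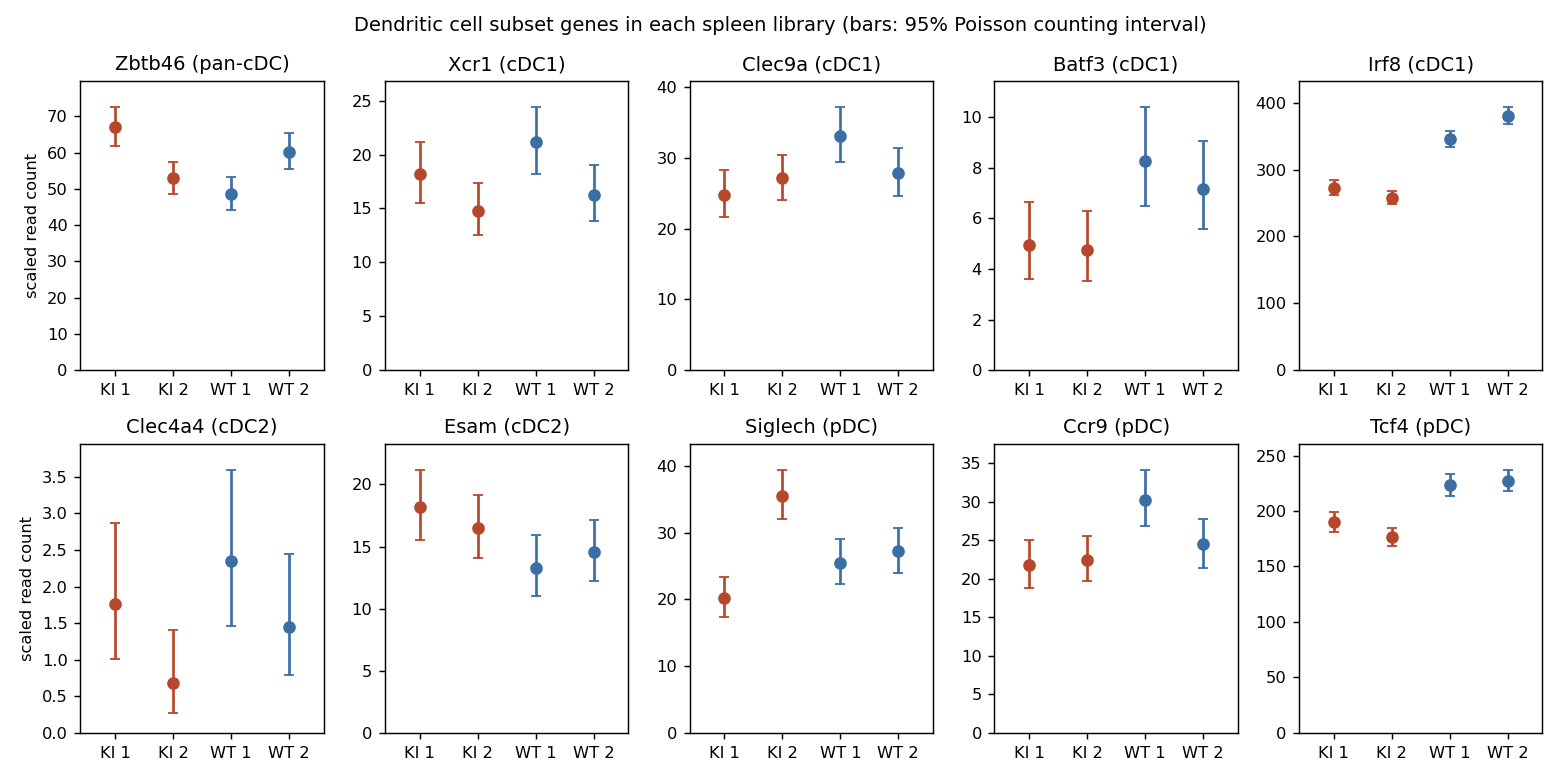
Scaled read count of each member (vertical axes, each from 0) in the 2 KLHL3-KI libraries (red) and the 2 WT libraries (blue), with the 95% Poisson counting interval as bars. Irf8, Batf3 and Tcf4 are lower in both KLHL3-KI libraries than in both WT libraries, while the KLHL3-KI libraries lie on either side of the WT libraries for Siglech, at 20.2 and 35.5 in KLHL3-KI against 25.5 and 27.2 in WT.

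Zbtb46 (ENSMUSG00000027583), a zinc finger transcription factor that marks committed cDC and their precursors, was measured at 67.0 and 52.9 in the KLHL3-KI libraries and at 48.6 and 60.2 in the WT libraries. The groups overlapped, and each group held a high and a low library. Its log2 fold change was 0.14 (SE 0.14, 95% interval -0.19 to 0.46) and it was not called (limma adjusted p = 0.536). The replicates of each group differed by more than counting error: replicate 2 was at 0.790 of replicate 1 in KLHL3-KI (exact 95% interval 0.702 to 0.888) and at 1.24 in WT (1.09 to 1.41). Other scalings of the libraries placed this change between -0.03 and 0.14.

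The cDC1 factors were lower in KLHL3-KI spleen. Irf8 (ENSMUSG00000041515), which sets the cDC1 fate and also acts in monocytes and B cells, was at 273 and 257 in KLHL3-KI libraries against 346 and 381 in WT libraries. The groups did not overlap and the counts behind these values were high, with 2476 and 2644 reads in KLHL3-KI and 3091 and 3666 reads in WT. The log2 fold change was -0.45 (SE 0.09, 95% interval -0.66 to -0.24, limma adjusted p = 0.00764). The call was lost under 2 of 18 alternatives, without WT replicate 2 (limma adjusted p = 0.0896) and without a mean-variance trend (0.0660).
Batf3 (ENSMUSG00000026630), the basic leucine zipper partner of IRF factors that cDC1 need, was at 4.96 and 4.77 in KLHL3-KI libraries and at 8.28 and 7.16 in WT libraries. These values come from 45 and 49 reads in KLHL3-KI and 74 and 69 reads in WT, so the counting intervals are wide; that of KLHL3-KI replicate 1 reached 6.63 and that of WT replicate 2 began at 5.57. The log2 fold change was -0.57 (SE 0.18, 95% interval -0.97 to -0.17), with a limma adjusted p of 0.0480, just under the threshold. It was lost under 7 of 18 alternatives, among them leaving out any of the 4 libraries (limma adjusted p from 0.0707 to 0.219), DESeq2 (0.285), the replicate block (0.0516) and no filter on low genes (0.0877).

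The cDC1 surface markers were not called. Xcr1 (ENSMUSG00000060509), the receptor for the chemokine XCL1, was at 18.2 and 14.8 in KLHL3-KI libraries and at 21.1 and 16.3 in WT libraries, and the groups overlapped. Its log2 fold change was -0.17 (SE 0.17, 95% interval -0.54 to 0.21, limma adjusted p = 0.507). Clec9a (ENSMUSG00000046080), the C-type lectin that binds actin exposed by dead cells, was at 24.8 and 27.1 in KLHL3-KI libraries and at 33.1 and 27.8 in WT libraries. Both KLHL3-KI values lay below both WT values, by a narrow margin between KLHL3-KI replicate 2 and WT replicate 2. Its log2 fold change was -0.22 (SE 0.13, 95% interval -0.51 to 0.07, limma adjusted p = 0.256), and it was called under 1 of 18 alternatives, equal total reads (0.0460). The intervals of both markers include falls as large as that of Irf8.
Within a library, Batf3 came to 11.5% and 11.4% of the summed level of Xcr1 and Clec9a in KLHL3-KI libraries, against 15.3% and 16.2% in WT libraries, so the groups did not overlap. Irf8 came to 635% and 615% of the same sum in KLHL3-KI libraries, against 637% and 863% in WT libraries. The nearest libraries of the groups were almost equal. For pDC, Tcf4 came to 453.5% and 304.2% of the summed level of Siglech and Ccr9 in KLHL3-KI libraries. In WT libraries it came to 399.6% and 439.6%, so the groups overlapped. With 2 libraries a group an exact permutation test cannot go below p = 0.333, so these ratios carry no test.

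Sequences before the transcription starts of the cDC1 factors, the called members with an entry in the RefSeq promoter table of build GRCm38.p6, show what lies next to the genes that fell. Each run gives the 250 bases before the start, 5′ to 3′ on the plus strand, and capitals mark an E-box CAGGTG on either strand, a sequence that E proteins such as TCF4 can bind. Irf8 has 2 listed starts, with windows at chr8:120736108-120736357 and chr8:120738389-120738638, and the Batf3 window is chr1:191098164-191098413.
Irf8 start 1: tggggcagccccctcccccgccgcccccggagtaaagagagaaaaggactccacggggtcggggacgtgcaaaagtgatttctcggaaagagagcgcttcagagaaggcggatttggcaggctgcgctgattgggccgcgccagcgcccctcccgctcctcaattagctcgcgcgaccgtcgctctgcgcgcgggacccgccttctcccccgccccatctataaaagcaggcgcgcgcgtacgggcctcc
Irf8 start 2: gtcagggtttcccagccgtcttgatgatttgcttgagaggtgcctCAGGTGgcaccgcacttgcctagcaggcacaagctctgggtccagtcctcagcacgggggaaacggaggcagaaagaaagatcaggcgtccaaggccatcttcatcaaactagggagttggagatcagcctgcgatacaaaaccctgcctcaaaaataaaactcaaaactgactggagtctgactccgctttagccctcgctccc
Batf3: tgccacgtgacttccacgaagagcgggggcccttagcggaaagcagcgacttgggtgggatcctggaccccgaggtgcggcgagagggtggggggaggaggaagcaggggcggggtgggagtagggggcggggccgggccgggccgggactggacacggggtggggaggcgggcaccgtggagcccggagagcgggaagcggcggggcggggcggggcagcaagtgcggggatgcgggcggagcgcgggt
The E-box of the second Irf8 start lies 205 to 200 bases before it. The other Irf8 window and that of Batf3 held none of the 3 motifs searched.

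**Figure D2:**
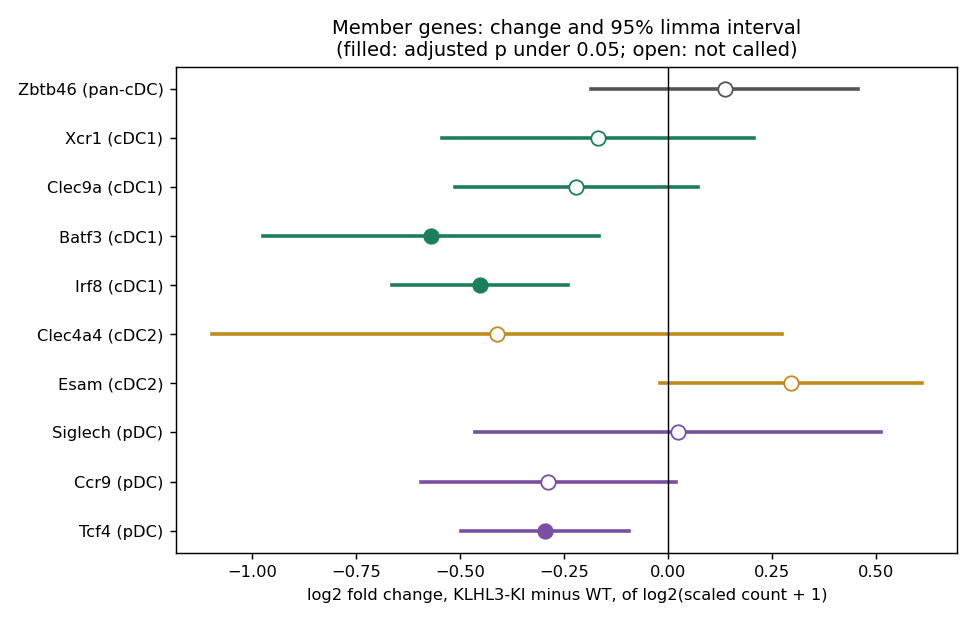
Log2 fold change of each member, KLHL3-KI minus WT, on the log2(scaled count + 1) scale (horizontal axis), with its 95% limma interval as a line; colours mark the subset and filled points the called genes. The filled points are Batf3 at -0.57, Irf8 at -0.45 and Tcf4 at -0.30, and the widest interval is that of Clec4a4, from -1.10 to 0.27.

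The cDC2 markers went in different directions and neither was called. Clec4a4 (ENSMUSG00000059639), an inhibitory C-type lectin receptor, was at 1.76 and 0.682 in KLHL3-KI libraries and at 2.35 and 1.45 in WT libraries. It rested on 16 and 7 reads in KLHL3-KI and 21 and 14 reads in WT, the groups overlapped, and its log2 fold change of -0.41 had a 95% interval from -1.10 to 0.27 (SE 0.30, limma adjusted p = 0.370). Its family holds closely related copies whose reads may have been shared, so its level is uncertain. Of these, Clec4a1 was at 24.2 and 28.8 in KLHL3-KI against 23.5 and 18.0 in WT, Clec4a3 at 22.9 and 20.5 in KLHL3-KI against 21.6 and 19.4 in WT, and Clec4a2 at 21.7 and 18.9 in KLHL3-KI against 15.9 and 11.1 in WT. Only Clec4a2 was called, with a log2 fold change of 0.57 (limma adjusted p = 0.0459, lost under 9 of 18 alternatives).
Esam (ENSMUSG00000001946), an adhesion molecule of the immunoglobulin superfamily, was at 18.2 and 16.5 in KLHL3-KI libraries and at 13.3 and 14.5 in WT libraries. It was the only member higher in both KLHL3-KI libraries, but its log2 fold change of 0.30 (SE 0.14, 95% interval -0.02 to 0.61) was not called (limma adjusted p = 0.164) and was called under 0 of 18 alternatives.
Esam is also expressed by platelets and endothelium, whose markers moved apart. The summed level of 10 megakaryocyte and platelet genes was 489 and 637 in KLHL3-KI libraries against 234 and 211 in WT libraries, and that of 10 endothelial genes was 837 and 744 in KLHL3-KI against 903 and 932 in WT. Esam came to 3.71% and 2.59% of the platelet sum in KLHL3-KI against 5.69% and 6.89% in WT, and to 2.17% and 2.21% of the endothelial sum in KLHL3-KI against 1.47% and 1.56% in WT. The part of platelets in the Esam values was not tested.

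Among the pDC markers, Tcf4 was the one called. Tcf4 (ENSMUSG00000053477), the E protein that holds pDC identity, was at 190 and 177 in KLHL3-KI libraries and at 223 and 227 in WT libraries, with no overlap and at least 1728 reads in each library. Its log2 fold change was -0.30 (SE 0.09, 95% interval -0.50 to -0.09, limma adjusted p = 0.0423), near the threshold. It was lost under 6 of 18 alternatives, which were leaving out WT replicate 1, WT replicate 2 or KLHL3-KI replicate 2 (limma adjusted p = 0.141, 0.194 and 0.208), no variance trend (0.149), no filter (0.0580) and median-ratio size factors (0.0506).
Ccr9 (ENSMUSG00000029530), the receptor for the chemokine CCL25, was at 21.8 and 22.5 in KLHL3-KI libraries and at 30.3 and 24.5 in WT libraries. The groups did not overlap, but the log2 fold change of -0.29 (SE 0.14, 95% interval -0.59 to 0.02) was not called (limma adjusted p = 0.164). With equal total reads, and with haemoglobin, immunoglobulin and mitochondrial genes removed, it was called (0.0318 and 0.0319).
Siglech (ENSMUSG00000051504), a sialic acid-binding lectin used to identify mouse pDC, was at 20.2 and 35.5 in KLHL3-KI libraries and at 25.5 and 27.2 in WT libraries. The KLHL3-KI libraries were thus the lowest and the highest of the 4. Replicate 2 stood at 1.76 times replicate 1 in KLHL3-KI (exact 95% interval 1.47 to 2.12), on 365 and 183 reads, and at 1.07 in WT (0.889 to 1.28). The log2 fold change was 0.02 (SE 0.22, 95% interval -0.46 to 0.51, limma adjusted p = 0.951). It became -0.37 without KLHL3-KI replicate 2 and 0.42 without KLHL3-KI replicate 1, where it was called (limma adjusted p = 0.04997), so its direction depended on which KLHL3-KI library was kept.

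Siglech and Ccr9 each held the E-box within the last 100 bases before their start, printed here because TCF4, the called pDC member, belongs to the family that binds it. The windows are chr7:55768084-55768183 and chr9:123767111-123767210 in GRCm38.p6, plus strand, 5′ to 3′, with the E-box in capitals; in Siglech it reads CACCTG, the same motif on the other strand.
Siglech: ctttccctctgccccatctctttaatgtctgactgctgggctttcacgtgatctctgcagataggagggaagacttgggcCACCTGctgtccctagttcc
Ccr9: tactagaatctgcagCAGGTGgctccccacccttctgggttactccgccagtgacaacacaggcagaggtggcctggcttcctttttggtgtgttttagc
Promoter windows were listed for 7 of the 10 members, 8 windows in all, and 4 of the 8 held CAGGTG on either strand within 250 bases, beside 17.2% of 32851 listed promoters. The others were the second Irf8 start, above, and Zbtb46, where it lies 238 to 233 bases before the start. The AP-1 site TGANTCA, which BATF family dimers can bind, was in 1 of 8 windows, that of Zbtb46, and in 6.75% of all promoters. The interferon-stimulated response element that IRF factors bind (GAAA, any 2 bases, GAAA) was in 0 of 8 and in 2.98% of all promoters. The E-box and AP-1 matches do not overlap. A match is a description of letters only, and its absence here says nothing of binding elsewhere.

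The balance between cDC1 and pDC surface markers did not separate the groups. The summed level of Xcr1 and Clec9a came to 102% and 72.1% of that of Siglech and Ccr9 in KLHL3-KI libraries and to 97.2% and 85.3% in WT libraries. The low value in KLHL3-KI replicate 2 is the library with the high Siglech.

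Other genes of the same subsets, from lists written with earlier results of these data known, gave mixed directions. Of 93 companion genes tested, each counted once, 26 fell and 8 rose. Of all tested genes 7.56% fell and 15.2% rose, and these shares stand beside every list count below. Counts that rose in the dendritic lists were near or under that share, so they show little about those lists. Without WT replicate 1, 9 fell, without WT replicate 2, 11 fell and 4 rose, and without KLHL3-KI replicate 2, 5 rose. Their median log2 fold change was -0.10, beside -0.01 for all tested genes.
Of 6 companions of all cDC, 4 fell and 0 rose (median -0.48), but 1 fell without WT replicate 1 and 2 without KLHL3-KI replicate 2; 0 also rose at an unadjusted limma p under 0.05, with edgeR and with DESeq2. Flt3, the cytokine receptor that cDC and pDC need to develop, was at 27.8 and 28.0 in KLHL3-KI against 43.9 and 34.4 in WT (log2 fold change -0.46, limma adjusted p = 0.0355). Itgax, which encodes the integrin CD11c, was at 75.0 and 65.2 in KLHL3-KI against 109.7 and 89.5 in WT (-0.50, limma adjusted p = 0.0176). Dpp4, a surface peptidase also found on T cells, changed by -0.60 and Kmo, an enzyme of the kynurenine pathway, by -0.74. Cst3, the abundant protease inhibitor of dendritic cells, and the factor Mycl were not called, at 0.02 and -0.43. So of the genes shared by cDC, Kmo, Dpp4, Itgax and Flt3 were lower and called, while Mycl, Cst3 and Zbtb46 were not called.
Of 18 cDC1 companions, 5 fell and 3 rose (median -0.03); without WT replicate 1, and likewise without WT replicate 2, 3 fell. Those that fell with the lowest p were Wdfy4, needed by cDC1 for cross-presentation, at -0.67, the inhibitory receptor Btla at -0.59, the antigen receptor Ly75 (DEC-205) at -0.54 and Cd8a at -0.66; the fifth was Tlr11 at -0.55. Wdfy4, Btla and Ly75 are also expressed by B cells, and Cd8a by T cells. Those that rose were Cd24a at 1.89, Snx22 at 1.18 and Nfil3, a factor upstream of cDC1 fate, at 0.98; Cd24a is also abundant on red cell precursors. The other 10, among them Cadm1, Tlr3, Itgae and Naaa, were not called, between -0.14 and 0.25. Cadm1, an adhesion molecule of cDC1, was at 74.8 and 79.6 in KLHL3-KI against 79.5 and 56.0 in WT, and Tlr3, the receptor for double-stranded RNA, at 26.0 and 25.8 in KLHL3-KI against 26.3 and 23.9 in WT.
Of 18 cDC2 companions, 4 fell and 2 rose (median -0.10). With either WT library left out 1 fell, with KLHL3-KI replicate 2 left out 2 fell, and 1 rose without WT replicate 2 or without KLHL3-KI replicate 1. Cd4 fell by 0.80, Relb by 0.46, Irf4, the factor of cDC2, by 0.37 and the Notch target Dtx1 by 0.40, all used in lymphocytes too. The integrin Itgam rose by 1.16 along with Clec4a2. The neutrophil list below rose too, and the cells behind the rises of Itgam and Clec4a2 were not tested. Sirpa, the receptor that defines cDC2, was at 279 and 278 in KLHL3-KI against 285 and 312 in WT and was not called (-0.10, limma adjusted p = 0.473).
Of 21 tested pDC companions, 6 fell and 2 rose (median -0.16). Without WT replicate 2, 0 fell and 1 rose, without WT replicate 1, 2 fell, and without KLHL3-KI replicate 2, 1 rose. The 4 with the lowest p were the factors Spib at -0.75 and Bcl11a at -0.45, the DNA sensor Tlr9 at -0.52 and the adaptor Blnk at -0.39, which B cells express too. Smim5 rose by 1.46 and Ly6c2, also a monocyte gene, by 0.50. Bst2 and Runx2 were not called, at -0.03 and -0.18. Cd300c was under the minimum level.
Of 21 tested pDC companions, 15 were higher in KLHL3-KI replicate 2 than in replicate 1, as Siglech was. Examples, chosen after their values were seen, are Pacsin1 at 9.64 in KLHL3-KI replicate 2 and 5.95 in replicate 1, Klk1 at 6.43 and 3.96 there and Cox6a2 at 2.73 and 1.54. Over all tested genes 54.3% were higher in KLHL3-KI replicate 2. So were 11 of 18 cDC1 companions, and of the lists below 10 of 10 erythroid, 9 of 10 neutrophil and 6 of 8 plasma cell genes, but 0 of 10 B cell genes.

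Maturation and ligand genes were also measured. Of 11 tested genes of mature dendritic cells, 4 fell and 0 rose (median -0.40), and 0 rose at an unadjusted limma p under 0.05, with edgeR or with DESeq2. Leaving out either WT library left 1 that fell. Ccr7, the receptor that guides mature cells to T cell zones, was at 59.0 and 54.9 in KLHL3-KI against 85.9 and 78.2 in WT (log2 fold change -0.52, limma adjusted p = 0.00590). Il4i1 changed by -0.72, Cd40 by -0.77 and Cacnb3 by -0.85, while Cd80, Cd83, Cd86 and Il12b were not called and Ccl17 was under the minimum level. The T and B cell lists below fell too, and the cells behind these 4 falls were not tested. Among 7 tested ligands and cytokine receptors, Flt3l alone fell. Flt3l, which encodes the ligand of FLT3, was at 14.5 and 12.9 in KLHL3-KI against 23.5 and 24.5 in WT, and its log2 fold change was -0.77 with an SE of 0.13 (limma adjusted p = 0.00308). It was called under 18 of 18 alternatives, though a called gene always passes that of an adjusted p under 0.1. Xcl1, the ligand of XCR1, and Ccl25, the ligand of CCR9, were not called. Xcl1 was at 2.75 and 2.24 in KLHL3-KI against 2.13 and 3.22 in WT, and Ccl25 at 17.8 and 17.5 in KLHL3-KI against 20.6 and 19.0 in WT.
Of 20 relatives and partners of the members, 4 fell and 2 rose; 0 fell without WT replicate 1, 1 fell and 0 rose without WT replicate 2, and 1 rose with either KLHL3-KI library left out. Those that fell were Id3, an inhibitor of E proteins, at -0.60, Bcl6 at -0.67, Irf4 and Ccr7. Siglece rose by 0.64 along with Clec4a2, and the cells behind these rises were not tested. The E proteins Tcf3 and Tcf12 were not called at 0.13 and -0.11, nor were Batf and Batf2 at -0.14 and -0.38, Id2 at -0.03 and Spi1 at 0.05.

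**Figure D3:**
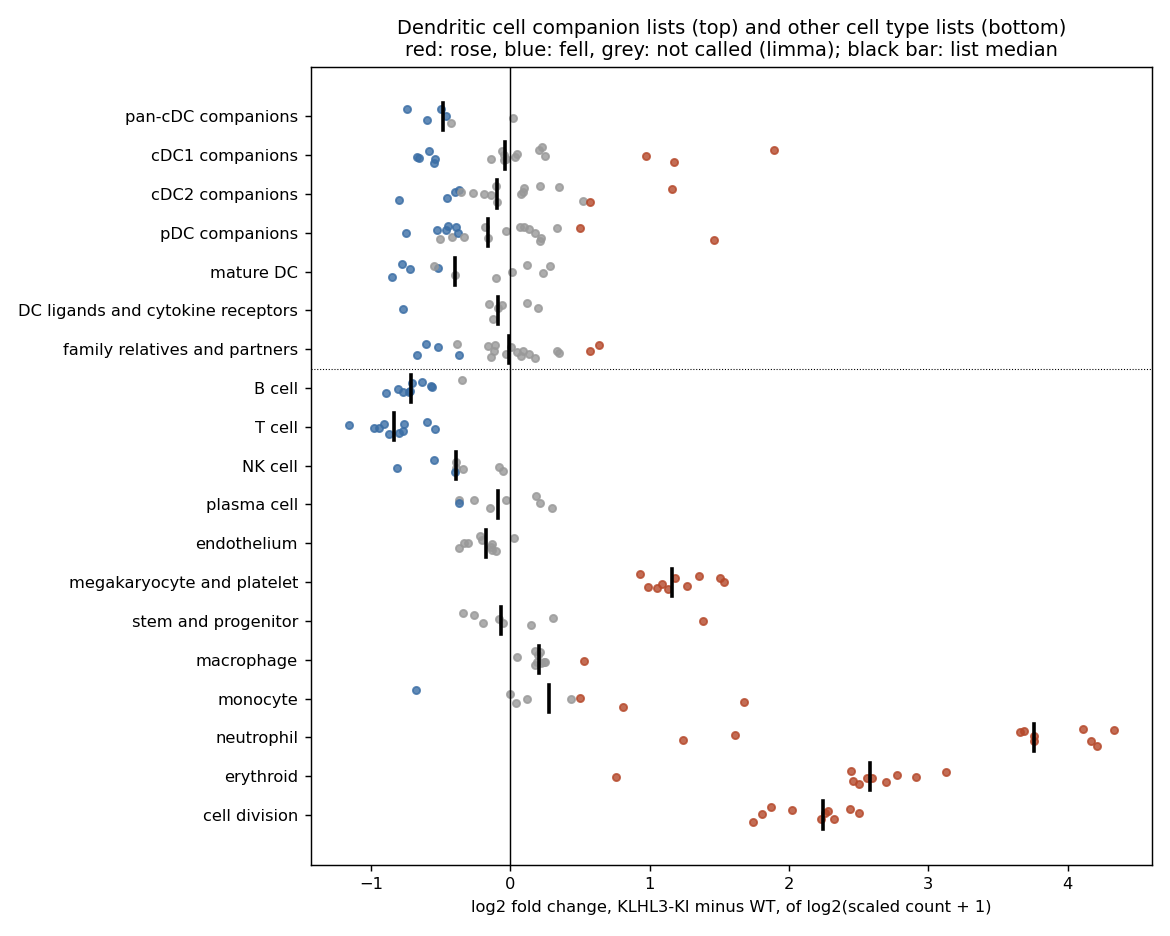
Log2 fold change, KLHL3-KI minus WT, of each tested gene (points) of the dendritic cell companion lists and of the lists of other cell types (rows), with genes that rose in red, genes that fell in blue, other genes in grey and the list median as a black bar. The dendritic lists have medians from -0.48 to -0.01, between those of the T cell list at -0.83 and the neutrophil list at 3.76.

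Marker RNA of several other cell types, which express some of these genes, also differed between the groups. Whether cell numbers differed was not tested. The B cell list had 9 of 10 genes lower and called, with a summed level of 2688 and 2045 in KLHL3-KI against 3538 and 3710 in WT; Ms4a1 changed by -0.64. Called falls numbered 3 without WT replicate 2 and 5 without a mean-variance trend. The T cell list had 10 of 10 lower and called, with sums of 294 and 264 in KLHL3-KI against 530.0 and 476 in WT; Cd3e changed by -0.87 and Cd3d by -0.77. Of 8 NK cell genes 3 fell, Ncr1 at -0.55, Eomes at -0.81 and Klrk1 at -0.39, while Klrb1c was not called at -0.39, with 0 falls called when either WT library was left out and 1 when either KLHL3-KI library was, and the sums were 96.4 and 90.5 in KLHL3-KI against 126 and 121 in WT.
The erythroid, cell division, neutrophil and platelet lists had 10 of 10 genes higher and called in each. Their medians were 2.58, 2.24, 3.76 and 1.16, with Klf1 at 3.12, Mki67 at 2.51, Ccna2 at 2.44, Ngp at 4.33, Ltf at 4.21, Pf4 at 1.505 and Ppbp at 1.53. The erythroid sums were 6621 and 7526 in KLHL3-KI against 1751 and 1392 in WT, the cell division sums 3640 and 4392 in KLHL3-KI against 830.0 and 724 in WT, and the neutrophil sums 1451 and 1956 in KLHL3-KI against 170 and 83.0 in WT.
Plasma cell genes fell in 1 of 8, Irf4, whose call was lost when either WT library was left out (Jchain at 0.30 and Sdc1 at -0.14 were not called; sums 2096 and 2606 in KLHL3-KI against 1968 and 2071 in WT). Endothelial genes fell in 0 of 10 with limma, edgeR and DESeq2, and in 2 of 10 at an unadjusted limma p under 0.05 (Kdr at -0.31 and Stab2 at -0.33). With the replicate block 1 of 10 was called lower. The count was 4 of 10 with equal total reads, and likewise after quantile normalization or with haemoglobin, immunoglobulin and mitochondrial genes removed. Pecam1 was at -0.22 and Cdh5 at -0.20, and neither passed. Macrophage genes rose in 1 of 10 (Spic at 0.22 was not called, Vcam1 rose by 0.53, a call lost without WT replicate 2; sums 2964 and 3209 in KLHL3-KI against 2633 and 2354 in WT). Of 8 monocyte genes 3 rose and 1 fell (Ly6c2 at 0.50, Ccr2 at 0.81, F13a1 at 1.68 and Cx3cr1 at -0.68, the last lost without WT replicate 1; sums 1025 and 1141 in KLHL3-KI against 1000.3 and 894 in WT), and of 8 tested stem and progenitor genes 1 rose, Myb (Cd34 at -0.05 and Kit at 0.15 were not called; sums 191 and 238 in KLHL3-KI against 158 and 151 in WT). No gene of these lists was at 0 in any library.

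Set against the B cell genes of the same library, Irf8 and Tcf4 were not lower in KLHL3-KI. Irf8 came to 10.1% and 12.6% of the summed B cell level in KLHL3-KI libraries and to 9.77% and 10.3% in WT libraries, and the groups overlapped. Tcf4 came to 7.08% and 8.63% in KLHL3-KI libraries against 6.31% and 6.12% in WT libraries, higher in KLHL3-KI. The part of B cells in the levels of Irf8 and Tcf4 was not tested.

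**Figure D4:**
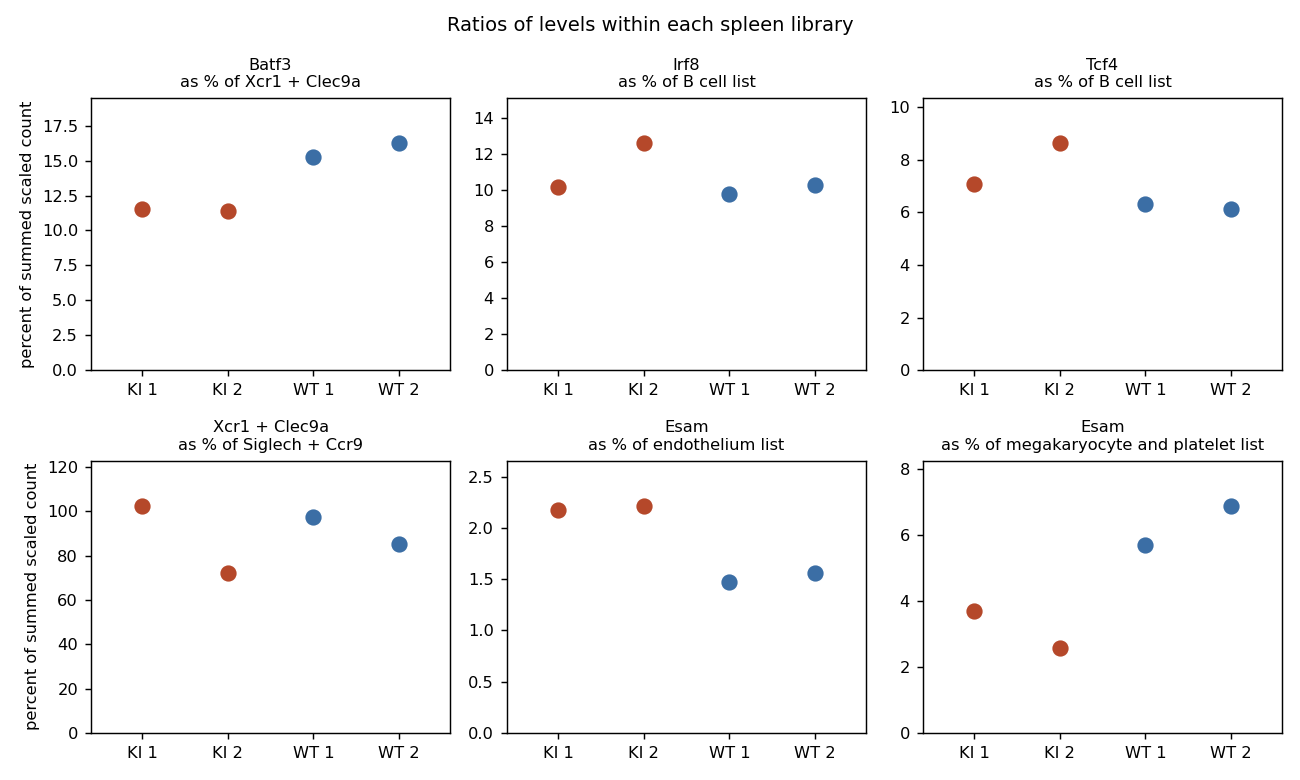
Level of 1 gene or pair of genes as a percentage of another summed level (vertical axes, from 0) within each KLHL3-KI library (red) and WT library (blue). Batf3 is near 11% of Xcr1 and Clec9a in KLHL3-KI and above 15% in WT, while Irf8 as a share of the B cell genes overlaps between the groups, at 10.1% and 12.6% in KLHL3-KI against 9.77% and 10.3% in WT.

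The scaling of the libraries moved the whole table. Of all tested genes 2583 rose and 1283 fell, but 1916 rose and 3130 fell with equal total reads, 2051 and 2372 after quantile normalization, and 2090 and 2968 with haemoglobin, immunoglobulin and mitochondrial genes removed. The median over all genes then stood at -0.16, -0.10 and -0.14. Irf8, Batf3 and Tcf4 were lower and called in each of these 3, at -0.62, -0.71 and -0.46 with equal total reads. Esam stayed positive, at 0.14 to 0.30, and the sign of Zbtb46 and Siglech turned negative with equal total reads without a call.

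**Figure D5:**
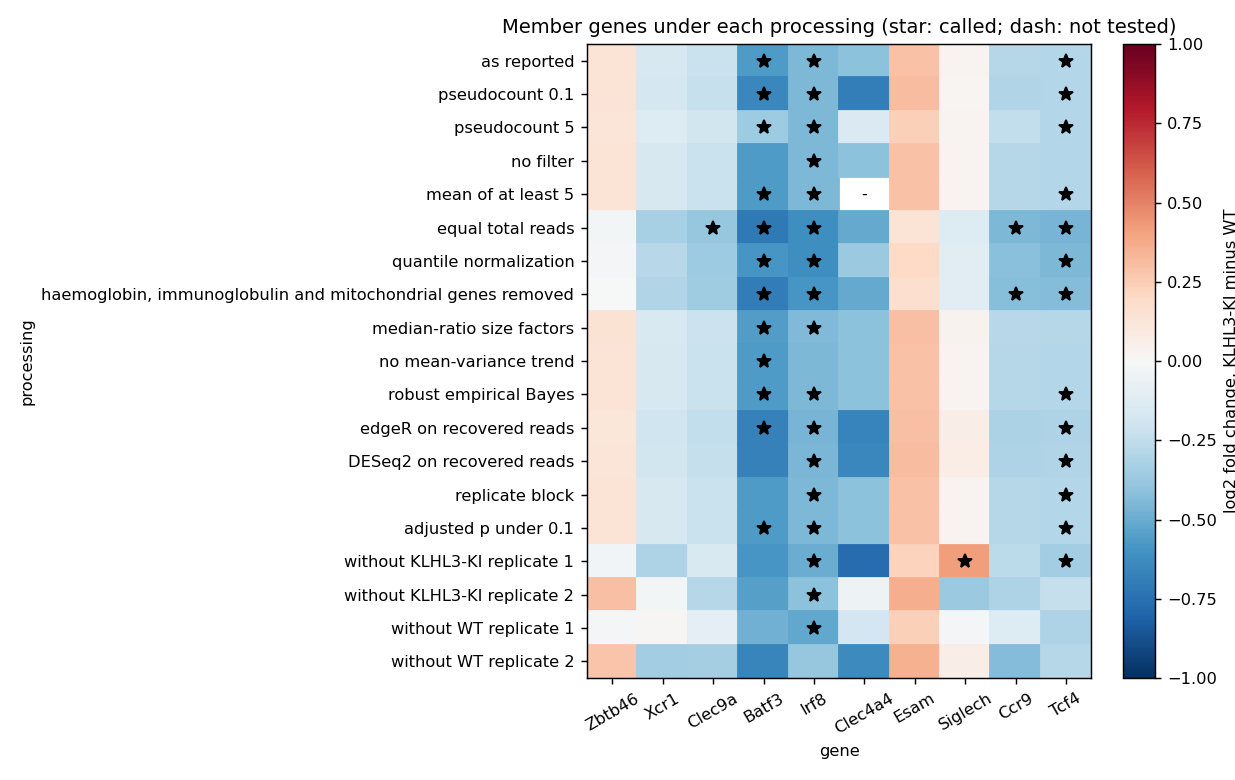
Log2 fold change, KLHL3-KI minus WT, of each member (columns) as reported and under each alternative processing (rows), with a star where the gene was called. Irf8 has a star under 16 of 18 alternatives, Tcf4 under 12 and Batf3 under 11, and Zbtb46, Xcr1, Clec4a4 and Esam have none.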

How the data were processed

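Whole-spleen total RNA was sequenced after ribosomal RNA depletion with a directional kit, per the labels' protocols. Per the submitters' processing notes, Trimmomatic 0.38, Bowtie2, RSEM 1.3.0, edgeR and build GRCm39 were used; their roles, the annotation and any filters were not given there. The authors deposited a normalized signal per gene and library: dividing by a library's smallest non-zero value gave whole reads (100% of values, to within 0.001 read). Columns were matched to samples by library name and groups taken from titles. Symbols came from a GRCm38 annotation (23605 of 23763 identifiers matched), and promoter sequences from RefSeq, matched by symbol.

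Genes with a mean of at least 1 were tested (16970) on log2(value + 1), pseudocount 1, with limma 3.58.1 in R 4.3.3 (mean-variance trend, two-sided, Benjamini-Hochberg). Recovered reads were compared with edgeR 4.0.16 (quasi-likelihood) and DESeq2 1.42.0 as alternatives, and the fits were tested on simulated data. Members, lists and ratios were chosen with earlier results of these data known. The rule named all members, up to 4 called genes per direction of each companion list and the first 2 genes of each other list, of which 2 are not reported here; further genes were named with their values known. Lists share members. Intervals on reads are exact Poisson or binomial and cover counting error only.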

Additional observations from a re-analysis of the deposited data

How the results depend on the processing

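Against 3 members that fell, 5 fell with equal total reads, 1 with no filter and 1 without a mean-variance trend; leaving out 1 library gave 0 to 2 that fell and 0 to 1 that rose, namely Siglech without KLHL3-KI replicate 1. Of all genes, 2462 were called without a trend, and 1653 to 4530 with 1 library left out (1386 to 2903 rose, 267 to 1627 fell). Genes that fell numbered 3130 with equal total reads, 2968 with haemoglobin, immunoglobulin and mitochondrial genes removed, 2372 after quantile normalization, 659 without a trend, 781 with DESeq2 and 1991 at an adjusted p of 0.1. Other counts over all genes and over the members stayed within 1.5 times; counts in the companion and cell type lists moved more, and without a trend 11 companions fell and 4 rose, 0 of the pDC, 1 of the cDC2 and 2 of the pan-cDC companions among those that fell. The cause of these shifts was not tested. With the replicate number as a block, 2 members fell and 4130 genes were called. The replicate numbers come from the titles, and no label states a pairing of the samples. By library name, replicate 1 is KI_Sp_1 and WT_Sp_2, and replicate 2 is KI_Sp_3 and WT_Sp_3. Deviations of libraries with the same replicate number had a correlation of -0.03 over genes. Of 31 named companion genes that were called, 9 kept the call under all 18 alternatives (Kmo, Wdfy4, Btla, Cd24a, Snx22, Cd4, Itgam, Smim5 and Flt3l) and 22 lost it under at least 1. Depth limits Clec4a4 and Batf3 most, with 7 to 21 and 45 to 74 reads a library.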
